A study of Mus musculus with 6 samples.

Results

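Abca5, Abca6, Abca8a, Abca8b and Abca9 encode lipid transporters of the ABCA8 type and lie side by side on mouse chromosome 11. The cluster was chosen by Abca8a, which was selected on its large rise in these libraries, and the other 4 genes were taken with it for their place beside it and their family. They are 5 of the 54232 genes in the deposited table. Expression was measured by RNA-seq in primary oviductal smooth muscle cells, with 3 libraries from WT females and 3 from Pbrm1 cKO females, to examine how the loss of Pbrm1 alters transcription in this tissue. Pbrm1 encodes the subunit that characterizes the PBAF form of the SWI/SNF chromatin remodeling complex.

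Females of both groups were 8 to 12 weeks old, had been mated and were on day 2 of pregnancy. In the cKO, floxed Pbrm1 alleles were recombined by cre expressed from the progesterone receptor locus (PR-IRES-cre), so deletion follows the cells that express or have expressed that receptor. The labels call the controls WT, while a legend in the supplement of the study names floxed mice, and the number of animals behind each library is not stated. Cells were freed from oviduct pieces by digestion (trypsin, collagenase and dispase), and the filtered cells were plated for some hours before RNA was taken. The p-values therefore measure the spread between these libraries, which may be technical.

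ABCA proteins are full-length ATP-binding cassette transporters that use ATP to move lipids across or out of membranes. The ABCA8-type genes form their own branch of the subfamily and arose by local duplication. Human ABCA8 has been tied to cholesterol efflux and high density lipoprotein, and ABCA5 to cholesterol handling in lysosomes and late endosomes. The roles of ABCA6 and ABCA9 are less well defined.

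All 5 genes are on the minus strand of chromosome 11 (GRCm38), between 109932190 and 110337716, a span of 406 kb. In order of coordinate they are Abca8b (ENSMUSG00000020620.14, 109932190 to 109995845), Abca8a (ENSMUSG00000041828.15, 110025634 to 110095978), Abca9 (ENSMUSG00000041797.7, 110100749 to 110168196), Abca6 (ENSMUSG00000044749.13, 110176820 to 110251776) and Abca5 (ENSMUSG00000018800.14, 110269369 to 110337716). The gaps between them were 29.8, 4.77, 8.62 and 17.6 kb, the smallest being between Abca8a and Abca9. The longest protein-coding transcript of each gene had 39 exons, with a coding length of 4863 to 4929 bases. Coding sequences of Abca8a and Abca8b, the mouse counterparts of human ABCA8, were identical at 72.7% of aligned bases. Abca9 shared 68.9% with either of them, Abca6 shared 61.1% to 62.5% with these 3 genes, and Abca5, the most distant, shared 52.4% to 53.5% with the other 4.

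The bases before the start of 4 members are shown because they differ in composition between the most abundant gene of the cluster and the 3 others. Each is read 5′ to 3′ on the minus strand, from 250 bases before the RefSeq start (build GRCm38.p6) up to the first annotated transcript base, and capitals mark motif matches on either strand. The regions are chr11:110337717-110337966, chr11:110095979-110096187, chr11:109995846-109996095 and chr11:110168197-110168403. Promoter entries matched 4 of the 5 symbols, all but Abca6.
Abca5: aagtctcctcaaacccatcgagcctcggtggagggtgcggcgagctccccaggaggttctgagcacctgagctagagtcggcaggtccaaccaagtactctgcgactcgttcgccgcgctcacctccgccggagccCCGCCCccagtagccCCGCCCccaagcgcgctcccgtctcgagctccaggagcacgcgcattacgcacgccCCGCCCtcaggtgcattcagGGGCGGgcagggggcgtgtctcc
Abca8a: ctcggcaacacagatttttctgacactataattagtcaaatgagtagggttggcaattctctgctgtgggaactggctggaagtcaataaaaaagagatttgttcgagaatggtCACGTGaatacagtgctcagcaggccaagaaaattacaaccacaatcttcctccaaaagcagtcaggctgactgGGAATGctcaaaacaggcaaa
Abca8b: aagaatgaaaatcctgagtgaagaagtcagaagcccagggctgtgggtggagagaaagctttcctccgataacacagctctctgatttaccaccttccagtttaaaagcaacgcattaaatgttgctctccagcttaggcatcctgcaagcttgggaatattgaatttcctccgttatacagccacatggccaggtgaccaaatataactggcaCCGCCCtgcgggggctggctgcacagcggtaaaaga
Abca9: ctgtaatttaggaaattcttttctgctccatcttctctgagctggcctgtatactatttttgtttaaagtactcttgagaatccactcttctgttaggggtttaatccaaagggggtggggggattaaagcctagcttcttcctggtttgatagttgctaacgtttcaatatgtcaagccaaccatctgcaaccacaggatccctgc

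The 250 bases before the Abca5 start had 69.2% G and C and 25 CpG dinucleotides, or 0.850 of the number expected from base composition. Abca8a had 43.2% with a CpG ratio of 0.349, Abca8b 48.8% with 0.403 and Abca9 44.4% with 0.165. These values and the motif distances below refer to the 250 bases before the RefSeq start. For Abca8a and Abca9 these bases include annotated transcript that is not printed above. The printed sequence of Abca8a ends 42 bases before that start, and that of Abca9 ends 44 bases before it. Among 32851 mouse promoters of the same length, the G and C content of Abca5 was at percentile 89.6, against 19.0 for Abca8a, 36.6 for Abca8b and 22.1 for Abca9. Abca5 held 4 matches to the GC box (GGGCGG), between 114 and 23 bases before the start, and Abca8b held 1, at 36 bases. This motif was in 32.7% of all promoters. In Abca8a there was 1 match to the TEAD site (GGAATG), 62 bases before the start, which 12.6% of promoters also held. There was also 1 E-box (CACGTG) at 136 bases, found in 6.02% of promoters, and this motif was added to the search after the sequence had been seen. None of these 4 promoters matched the TATA box (TATAAA, 12.4% of promoters), the CCAAT box (CCAAT, 33.8%), the AP-1 site (TGANTCA, 6.75%), the progesterone and glucocorticoid receptor half-site (TGTTCT, 16.1%) or the nuclear receptor half-site (AGGTCA, 14.02%). The motifs do not overlap in these sequences, and a match is only a run of letters in these windows.

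Libraries held 15390818 to 18947947 counts, and a count of 3 corresponded to 0.159 to 0.193 CPM (read counts relative to the TMM-scaled library total, in the usual CPM unit). Pbrm1, the targeted gene, was at 170, 183 and 172 CPM in WT replicates 1, 2 and 3 and at 43.5, 50.7 and 42.7 CPM in cKO replicates 1, 2 and 3. Its log2 fold change was -1.94 (edgeR adjusted p = 9.13e-11). The smooth muscle marker Acta2 was abundant in both groups, with a mean ± SD over 3 libraries of 1287 ± 33.5 CPM (WT) and 1536 ± 131 CPM (cKO). Levels within the smooth muscle list differed, down to means of 2.68 CPM (WT) and 1.51 CPM (cKO) for Kcnmb1. Markers of other cell types were present too: Pdgfra, a fibroblast marker, stood at 747 ± 12.3 and 1319 ± 39.1 CPM, and Ptprc, carried by leukocytes, at 15.0 ± 0.567 and 30.6 ± 2.70 CPM. The 4 adipocyte markers summed to at most 0.265 CPM in any library.

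Of the 4 members that were not selected on their values, Abca5, Abca6 and Abca9 rose in cKO by 1.71 to 1.87-fold, and in each of these 3 genes every cKO library lay above every WT library. Abca8b did not pass the test, and its groups overlapped. Among all 15376 genes tested, 26.6% had all cKO libraries above all WT libraries, and edgeR called 43.7% changed, 21.9% higher and 21.8% lower in cKO, at an adjusted p under 0.05. Abca8a, on which the cluster was chosen, stood 7.94-fold higher without overlap between the groups, and this is given as a description. In the same libraries the summed fibroblast markers were 1.78 times and the summed leukocyte markers 1.62 times as high in cKO as in WT, and their part in this and the following differences was not tested. In bulk samples, a change in the number of cells of a type and a change in RNA per cell cannot be told apart.

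**Figure D1:**
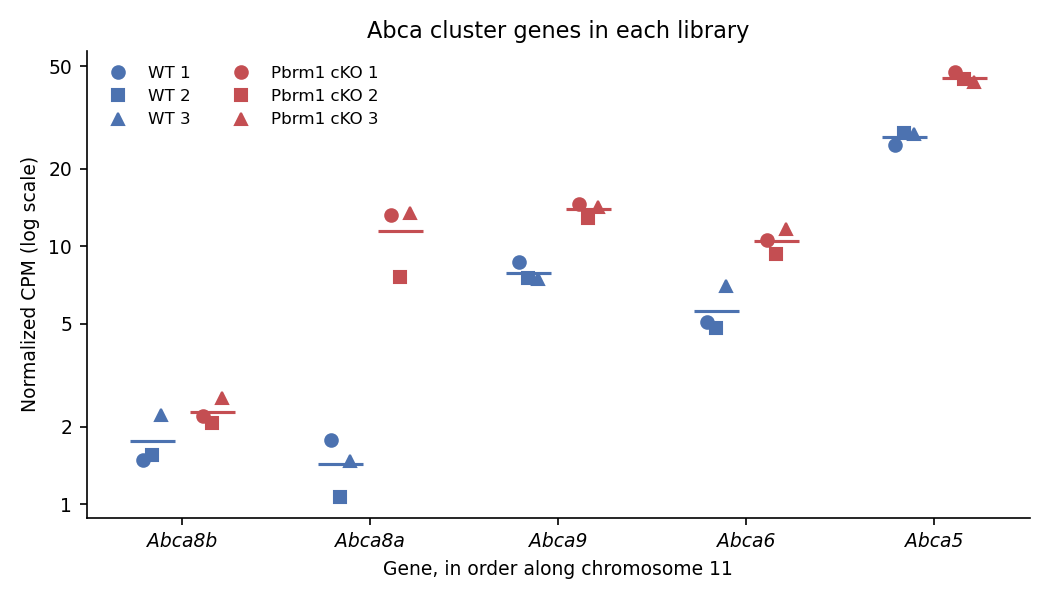
Normalized CPM (log scale) of the 5 cluster genes in each of 6 libraries, in chromosomal order, with a line at each group mean and a symbol shape for each replicate number. Abca8a rises from 1.07 to 1.77 CPM in WT to 7.59 to 13.5 CPM in cKO, while the Abca8b libraries of the groups overlap.

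Abca8a was the least abundant member in WT by mean CPM. It had 30, 20 and 25 counts in WT replicates 1, 2 and 3 and 235, 143 and 210 counts in cKO replicates 1, 2 and 3. Normalized levels were 1.77, 1.07 and 1.46 CPM in WT and 13.2, 7.59 and 13.5 CPM in cKO. The lowest cKO library, replicate 2, was still above the highest WT library. Means were 1.44 ± 0.353 and 11.4 ± 3.34 CPM (SD, n = 3), with a log2 fold change of 2.99 (SE 0.25), which is given as a description without a test. The fold without cKO replicate 2 was 3.23 on the log2 scale, and without WT replicate 2, the lowest WT library, it was 2.81.

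Abca8b is the paralog nearest to Abca8a in sequence and its neighbor on the chromosome. Its counts were 25, 29 and 38 in WT and 39, 39 and 40 in cKO, or 1.48, 1.55 and 2.22 CPM against 2.19, 2.07 and 2.57 CPM. WT replicate 3 lay above cKO replicates 1 and 2, so the groups overlapped. The means of 1.75 ± 0.412 and 2.28 ± 0.263 CPM (SD, n = 3) gave a log2 fold change of 0.37 (SE 0.22, 95% interval -0.10 to 0.85, edgeR adjusted p = 0.194). At 25 to 40 counts per library the interval ran from 0.931-fold to 1.81-fold.

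The ratio of Abca8a to Abca8b, each per kilobase of exon, was 1.42, 0.816 and 0.779 in WT replicates 1, 2 and 3. In cKO replicates 1, 2 and 3 it was 7.13, 4.34 and 6.21. Both genes were therefore at like levels in WT, and Abca8a was the more abundant in each cKO library. Of the distinct 75-base windows in the exons of Abca8a, 0.559% also occurred in another gene, all of them in Abca8b, against 0.835% for Abca8b and 0 for the other 3 genes. With 50-base windows the shares were 1.64% for Abca8a and 2.45% for Abca8b. Reads lying wholly within stretches shared by both genes could not be assigned to a single gene. A further gene, Gm11697, runs antisense inside Abca8b and had at most 3 counts in any library, with reads counted by strand.

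Abca9, 4.77 kb from Abca8a, had 8.69, 7.54 and 7.49 CPM in WT replicates 1, 2 and 3. The cKO libraries had 14.6, 12.9 and 14.2 CPM. Groups did not overlap, and the gene rose from 7.91 ± 0.676 to 13.9 ± 0.853 CPM (SD, n = 3). This was 0.81 on the log2 scale (SE 0.10, edgeR adjusted p = 2.59e-05). For comparison, 5.32% of all genes tested had a higher log2 fold change.

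Abca6 had 5.08, 4.81 and 7.03 CPM in WT and 10.6, 9.34 and 11.6 CPM in cKO. WT replicate 3 was the highest of its group but stayed below every cKO library. The mean rose from 5.64 ± 1.21 to 10.5 ± 1.16 CPM (SD, n = 3), by 0.90 on the log2 scale (SE 0.15, edgeR adjusted p = 0.000226). A higher value was found in 4.51% of all genes tested.

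Abca5 was the most abundant member in all 6 libraries. It had 24.6, 27.5 and 27.3 CPM in WT and 47.5, 44.7 and 43.5 CPM in cKO. The cKO libraries were thus close together and apart from WT, with means of 26.5 ± 1.62 and 45.2 ± 2.07 CPM (SD, n = 3). The rise was 0.77 on the log2 scale (SE 0.07, edgeR adjusted p = 9.04e-07). Of all genes tested, 5.93% had a higher log2 fold change. In cKO replicate 2, the values of Abca6, Abca8a, Abca8b and Abca9 were each the lowest of the cKO group. That library also had the most Pbrm1 of the cKO group, and a link between these values and Pbrm1 was not tested. Of the libraries left out in turn, its removal gave the most calls over all genes, so its difference was not limited to the cluster. Abca5 was lowest in cKO replicate 3.

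Summed over the 4 genes other than Abca8a, the cluster gave 39.9, 41.4 and 44.1 CPM in WT and 74.9, 69.0 and 71.9 CPM in cKO, or 1.72 times the WT level. The make-up of that sum by CPM was similar in both groups. Abca5 accounted for 63.4% of it in WT and 62.9% in cKO, Abca9 for 18.9% and 19.3%, Abca6 for 13.5% and 14.6%, and Abca8b for 4.19% and 3.17%. With Abca8a included, the ratio was 1.93, and Abca8a made up 3.32% of the sum in WT and 13.7% in cKO.

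To compare levels between genes, CPM were divided by exon length. In WT, Abca5 led with 2.32 ± 0.141 CPM per kilobase (SD, n = 3), followed by Abca6 with 1.04 ± 0.224 and Abca9 with 0.982 ± 0.0840, whose libraries overlapped. Abca8b with 0.236 ± 0.0555 and Abca8a with 0.229 ± 0.0562 came last and overlapped each other. In cKO, Abca5 again led with 3.95 ± 0.181 CPM per kilobase. Abca6 with 1.95 ± 0.214, Abca8a with 1.82 ± 0.532 and Abca9 with 1.73 ± 0.106 followed, and neighbors in that order overlapped. Abca8b stood below them with 0.307 ± 0.0354. When the longest protein-coding transcript was used as the length, Abca9 came before Abca6 in both groups, and Abca8a before Abca8b in WT and before Abca6 in cKO.

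**Figure D2:**
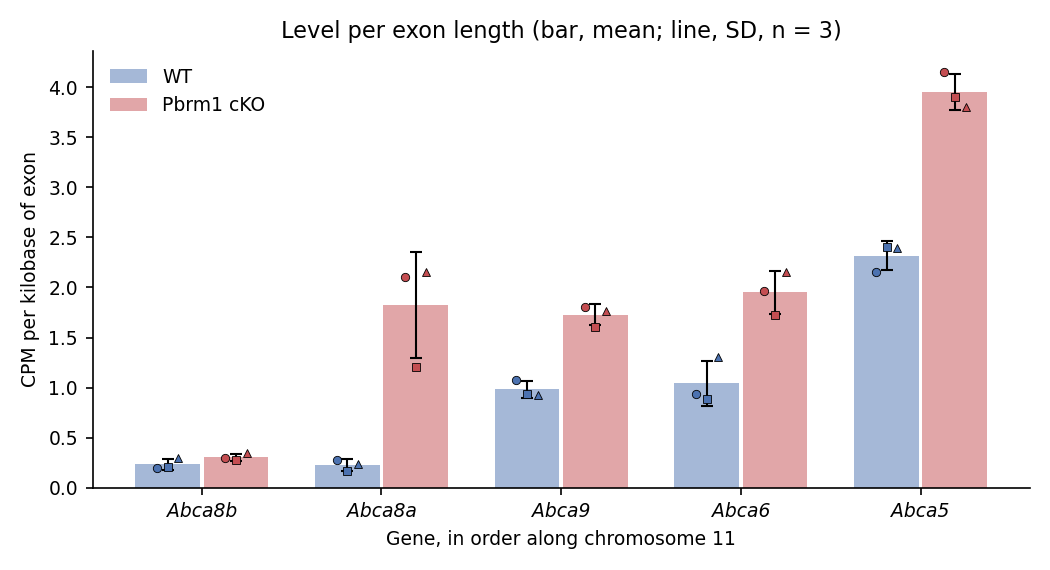
CPM per kilobase of exon for each gene, as the mean of 3 libraries per group (bars), the SD (lines) and each library (points). Abca8a moves from the level of Abca8b in WT to that of Abca6 and Abca9 in cKO.

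Fold changes were next set beside those of the neighboring genes. Of 15 other protein-coding genes within 1 Mb of the cluster, 10 were tested, with 4 higher and 1 lower in cKO. The share called, 50%, was near the 43.7% of all genes tested. Map2k6, a kinase that activates p38, starts 61.4 kb beyond Abca5 and had 1.42, 1.76 and 2.40 CPM in WT against 5.74, 4.46 and 5.40 CPM in cKO (log2 fold change 1.48, SE 0.20, edgeR adjusted p = 4.45e-05). On the Abca8b side, Fam20a, a pseudokinase of the secretory pathway, rose by 0.71 on the log2 scale (SE 0.16, edgeR adjusted p = 0.00262) at a distance of 210 kb. Wipi1, which acts in autophagosome formation, rose by 0.44 (SE 0.07, edgeR adjusted p = 0.000101) and the peptidase gene Amz2 by 0.22 (SE 0.07, edgeR adjusted p = 0.0239), the latter losing its call in 4 of 14 alternatives. Axin2, a feedback inhibitor of Wnt signaling 981 kb away, fell from 19.7 to 13.2 CPM (log2 fold change -0.58, edgeR adjusted p = 0.000118).

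The other 5 neighbors did not pass the threshold. Prkar1a, a regulatory subunit of protein kinase A that lies next to Fam20a, had a log2 fold change of -0.06. The value was 0.05 for Gna13, a G protein alpha subunit, -0.27 for Slc16a6, a monocarboxylate transporter family member, -0.03 for Arsg, a lysosomal sulfatase, and 0.34 for Kcnj2, a potassium channel. On the Abca8b side, Prkar1a thus lay between Fam20a and Wipi1, which were both higher. Within 0.5 Mb, 4 of 7 tested neighbors were higher and 0 lower (57.1% called). Within 2 Mb, 4 of 12 were higher and 2 lower (50% called). Over all genes tested the share called was 43.7%, with 21.9% higher and 21.8% lower in cKO.

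**Figure D3:**
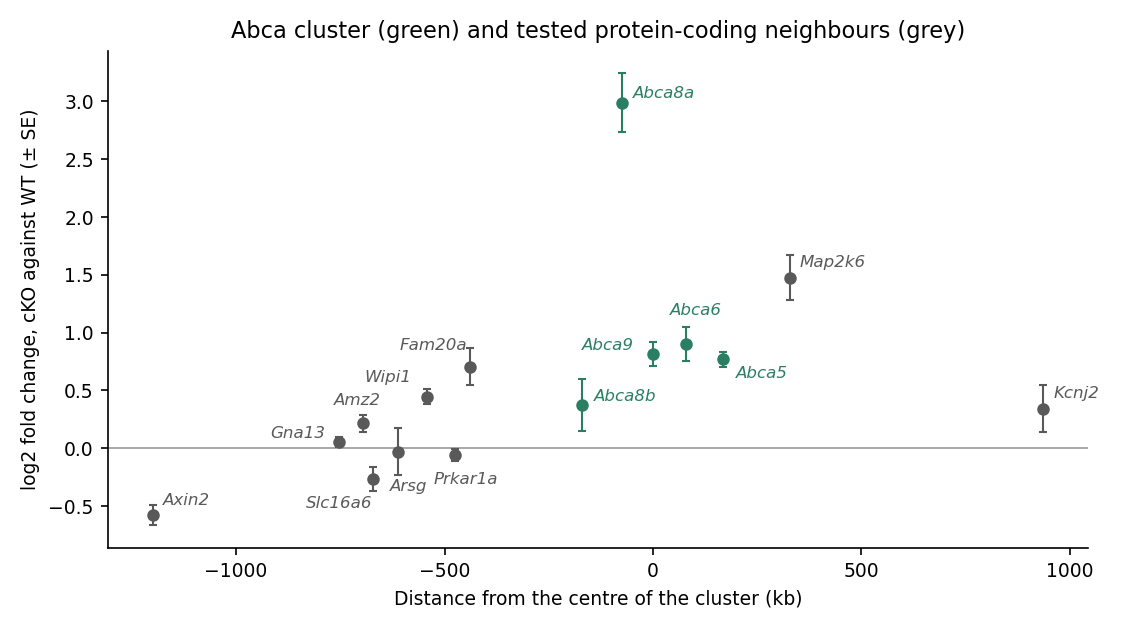
Log2 fold change of cKO against WT (points, with SE) for the cluster genes and the 10 tested protein-coding neighbors within 1 Mb, against distance from the centre of the cluster in kb. Abca8a stands apart at 2.99, and among the neighbors Map2k6 has the highest value, 1.48.

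The pattern of Abca8a was compared, by the root mean square difference of centred log2 CPM over the 6 libraries, with that of 11022 genes whose mean over all libraries was at least 5 CPM. The most alike were Serpina3n at 0.179, Lgi2 at 0.212, Ifi205 at 0.225, Asic3 at 0.266 and Armh4 at 0.268, each on a different chromosome from Abca8a. Serpina3n, a serine protease inhibitor, had 4.37, 3.10 and 3.92 CPM in WT and 25.5, 16.9 and 27.2 CPM in cKO. All but Lgi2 had WT means under 5 CPM and entered the comparison through their cKO levels. Since the genes were picked for their likeness to a gene selected on its rise, their own rise is a description and no finding.

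The rest of the ABCA subfamily was then examined. Of 11 other genes listed, 5 were tested, with 1 higher and 1 lower (40%, against 43.7% of all genes tested). Abca7, linked to phospholipid transport and phagocytosis, rose from 13.2 to 17.1 CPM (log2 fold change 0.37, SE 0.08, edgeR adjusted p = 0.00191). Abca4, best known as the retinal transporter of photoreceptors, fell from 5.91 to 2.69 CPM (log2 fold change -1.12, SE 0.16, edgeR adjusted p = 8.57e-05). Abca1, the cholesterol exporter that loads apolipoprotein A-I, had means of 83.1 ± 2.52 (WT) and 81.4 ± 4.04 CPM (cKO), with a log2 fold change of -0.03 (SD, n = 3, edgeR adjusted p = 0.679). The log2 fold changes of Abca2, found in endolysosomes, and Abca3, the surfactant lipid transporter of the lung, were -0.15 and -0.21 (edgeR adjusted p = 0.128 and 0.0529), and Abca3 passed the threshold in 5 of 14 alternatives. Abca12, Abca13, Abca14, Abca15, Abca16 and Abca17 had at most 7 counts in a library and were not tested. Of 6 ABCG genes, 3 were tested, with 2 called higher and 1 lower (100%, against 43.7% of all genes tested). Abcg4 rose from 0.584 to 1.26 CPM (log2 fold change 1.08, edgeR adjusted p = 0.0125, lost in 2 of 13 alternatives). Abcg2 rose from 52.9 to 63.4 CPM (log2 fold change 0.26, edgeR adjusted p = 0.00114). Abcg1, which exports sterol to lipoprotein, fell from 6.04 to 3.69 CPM (log2 fold change -0.71, edgeR adjusted p = 0.00713).

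Of 28 genes of sterol and lipoprotein handling, 27 were tested, and 16 were higher and 1 lower in cKO. The share called was 63.0%, against 43.7% of all genes tested (21.9% higher and 21.8% lower). The list was chosen with earlier results of these data known, so this contrast is a description. Their median log2 fold change was 0.18, against 0.002 over all genes tested. Cyp27a1, a sterol hydroxylase, rose from 1.53 to 2.97 CPM (log2 fold change 0.95, SE 0.20, edgeR adjusted p = 0.00171). Npc2, which carries cholesterol within lysosomes, rose from 202 to 331 CPM (log2 fold change 0.71, SE 0.06, edgeR adjusted p = 9.17e-07). Lpl, the lipoprotein lipase, rose by 0.71, Ch25h, which makes 25-hydroxycholesterol, by 0.65, Vldlr, a lipoprotein receptor, by 0.62, and Scarb2, a lysosomal membrane protein, by 0.61 on the log2 scale. Scarb1, the high density lipoprotein receptor and the sole member called lower, went from 74.7 to 56.7 CPM. The sterol-sensing receptors Nr1h3 and Nr1h2 had log2 fold changes of 0.12 (edgeR adjusted p = 0.571) and 0.24 (edgeR adjusted p = 0.0116). These receptors and Scarb1 were named after their values were seen.

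Of 25 genes of sphingolipid synthesis and breakdown, 23 were tested, with 4 higher and 6 lower. The share called, 43.5%, was that of all genes tested (43.7%), and the median log2 fold change was 0.06. Asah1, the acid ceramidase of lysosomes, rose from 71.8 to 113 CPM (log2 fold change 0.65, SE 0.06, edgeR adjusted p = 1.12e-06), and Cers4, a ceramide synthase, from 13.1 to 19.5 CPM (log2 fold change 0.57). Sgms1, a sphingomyelin synthase, fell from 82.9 to 58.0 CPM (log2 fold change -0.52, SE 0.06, edgeR adjusted p = 6.99e-06).

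**Figure D4:**
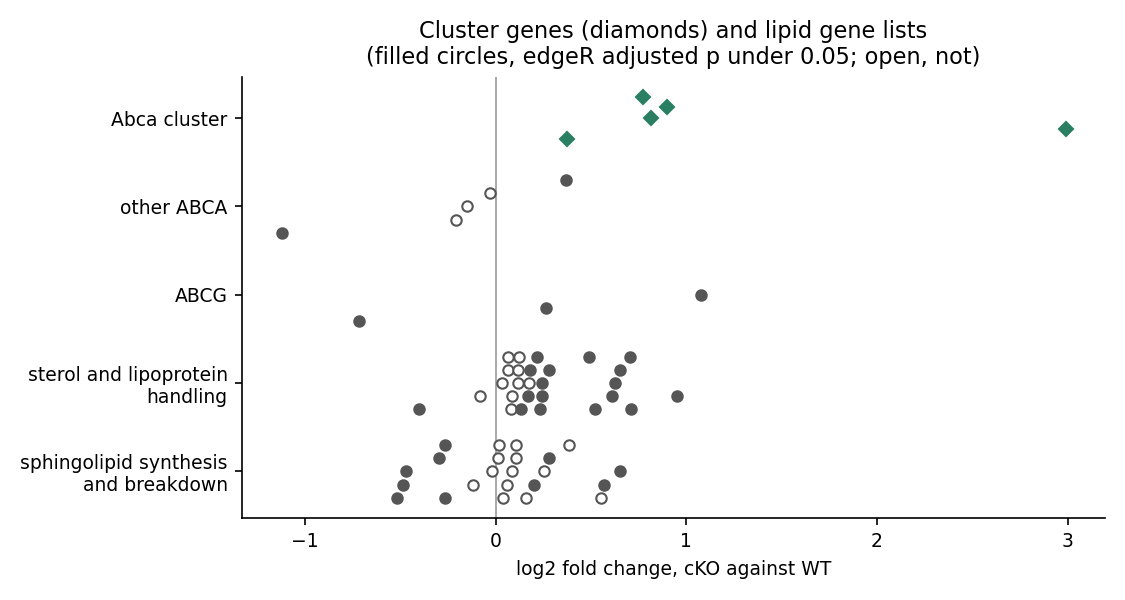
Log2 fold change of the cluster genes (diamonds) and of the tested genes of 4 lipid lists (circles, filled where the edgeR adjusted p is under 0.05). Among the cluster genes not selected on their values, Abca5, Abca6 and Abca9 lie between 0.77 and 0.90 and Abca8b, which did not pass the test, at 0.37. The other ABCA genes run from -1.12 for Abca4 to 0.37 for Abca7.

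Marker lists of several cell types, also chosen with earlier results of these data known, were set beside the cluster. The share of tested markers called ran from 37.5% for the endothelial list to 100% for the leukocyte and pericyte lists. Of all genes tested, 43.7% were called, 21.9% higher and 21.8% lower in cKO. Fibroblast markers summed to 1312 to 1329 CPM in WT and 2248 to 2417 CPM in cKO, and 8 of the 11 tested were higher and 2 lower. Leukocyte markers summed to 770 to 823 and 1238 to 1312 CPM, and all 12 were higher. For smooth muscle markers the sums were 3679 to 3761 and 4634 to 5241 CPM, a ratio of 1.35, with 6 of 12 higher and 2 lower. Pericyte sums were 440 to 474 and 531 to 632 CPM, with 5 of 6 markers higher and 1 lower, and epithelial sums 1048 to 1141 and 1248 to 1395 CPM, with 6 of 10 higher. The mesothelial list had 4 of 6 markers lower, with sums of 251 to 262 and 180 to 181 CPM, and the endothelial list 2 of 8 higher and 1 lower, with sums of 359 to 379 and 302 to 310 CPM. In these 7 lists no marker was at 0 in every library.

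Each member was also expressed per 1000 CPM of the summed markers of its library, for 7 of the marker lists, a description chosen after the values were seen. Such a ratio falls in proportion as the marker sum rises. A gene that rose about as much as a sum therefore comes out near 1 by construction, and the ratio is no test of a cause. The sums are also weighted to their most abundant markers. In WT, Pdgfra gave 747 CPM of a mean fibroblast sum of 1322 CPM, and Lyz2 453 CPM of a leukocyte sum of 788 CPM. Single markers differed, with fibroblast log2 fold changes from -0.65 for Dpt to 1.47 for Col14a1. Against the fibroblast sum, the cKO to WT ratio was 0.958 for Abca5, 1.05 for Abca6 and 0.986 for Abca9, and against the leukocyte sum 1.06, 1.16 and 1.09, with overlapping libraries in each case. The same genes were 1.27, 1.39 and 1.31 times higher in cKO against the smooth muscle sum and 1.41, 1.54 and 1.45 times higher against the epithelial sum, without overlap. Against the pericyte sum the ratios were 1.39, 1.53 and 1.44, with overlap for Abca6. Against the endothelial and mesothelial sums, which were 0.824 and 0.700 times the WT level in cKO, they ran from 2.07 to 2.67 without overlap. Abca8b ran from 0.730 against the fibroblast sum to 1.86 against the mesothelial sum, so its direction depended on the list. Abca8a ran from 4.44 to 11.4 and did not overlap under any of the 7 lists. It was selected on its large rise in these same libraries, so this is a description only.

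**Figure D5:**
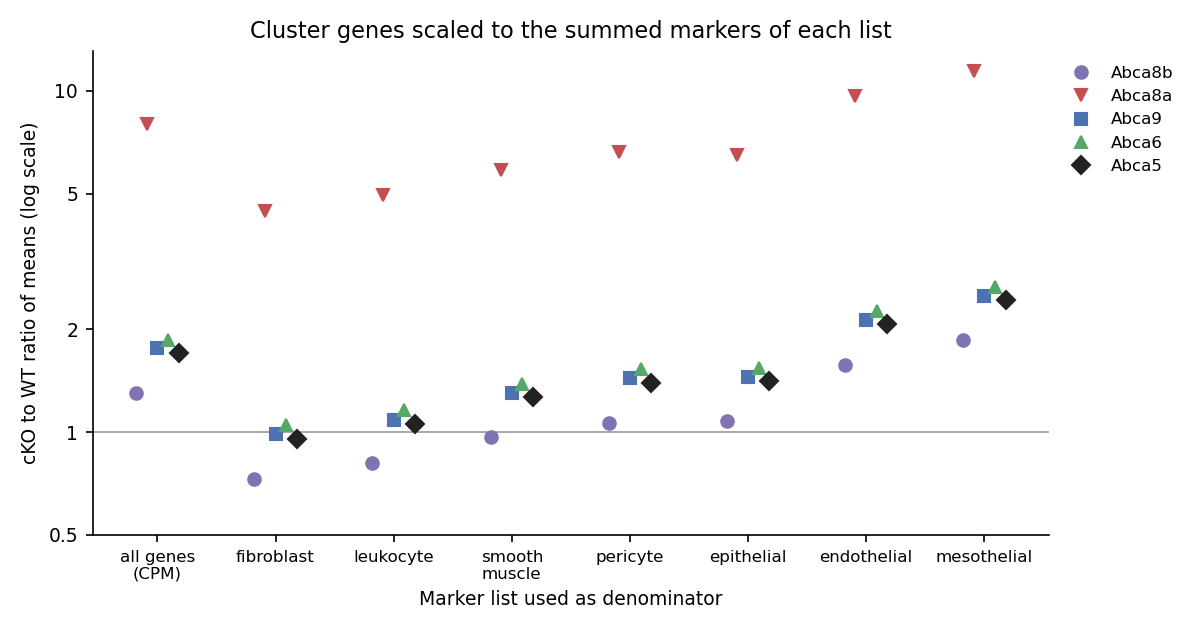
Ratio of the cKO mean to the WT mean (log scale) of each cluster gene, in CPM over all genes and per 1000 CPM of the summed markers of 7 lists, ordered by how much each sum rose. For Abca5, Abca6 and Abca9 the ratio runs from near 1 against the fibroblast sum to 2.43 or more against the mesothelial sum. For Abca8a, which was selected on its rise, it is at least 4.44 in each case.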

How the data were processed

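The authors deposited whole-number counts per gene in 1 table of 6 libraries. Per the file headers, exons were counted with featureCounts 1.6.4 in reverse-stranded mode on the GENCODE M18 annotation. Submitters' processing notes name cutadapt, HISAT2 and GRCm38.p5. Default counting leaves out reads that map to several genes, so reads in near-identical stretches are lost. The read length of these libraries is not given in the sources used here. The study states single-end reads of 50 bases for its uterine libraries, which were made with another kit, so windows of 50, 75 and 100 bases were compared. Symbols came from GENCODE M21 (54165 of 54232 genes). The table also gave exon length per gene.

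Genes passing filterByExpr entered a two-sided quasi-likelihood test in edgeR 4.0.16 (R 4.3.3) after TMM scaling, with group as the only term and Benjamini-Hochberg adjustment over 15376 genes and a threshold of 0.05. The test was checked on simulated counts. CPM are TMM-scaled and given as mean ± SD, and the floor of 3 counts covers counting error only, as reads carried no molecular identifiers. Replicates of each group differed by more than sampling noise (chi-square per gene 1.31 to 1.60), so all 6 libraries were used. Coding sequences were aligned with MAFFT 7.526.

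Members and gene lists were chosen with earlier results of these data known. Named genes were the members, Pbrm1, the 5 genes most like Abca8a, all tested ABCA genes and all tested neighbors. Members of the lipid lists called with a log2 fold change beyond 0.5 (at most 6 per list) were named too. Some genes were named outside this rule, among them Abcg2, Scarb1, Nr1h2, Nr1h3, Kcnmb1, Dpt, Col14a1 and Lyz2. Alternatives were DESeq2 1.42.0, limma-voom (limma 3.58.1), other scalings, filters and thresholds, a replicate block, and leaving out each library.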

Additional observations from a re-analysis of the deposited data

How the results depend on the processing

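The log2 fold changes of the 5 cluster genes kept their direction in 14 alternatives each. The 4 genes with a test given also kept their side of the threshold. The range was 0.72 to 0.80 for Abca5, 0.79 to 1.08 for Abca6 and 0.78 to 0.88 for Abca9. For Abca8a, for which no test is given, it was 2.81 to 3.23. Abca8b ranged from 0.27 to 0.58, with adjusted p from 0.0762 without WT replicate 3 to 0.420 without WT replicate 1 (edgeR). Calls over all genes numbered 5535 with DESeq2, 5532 to 7054 when a library was left out, and 998 (557 higher, 441 lower) when a log2 fold change beyond 1 was also required, against 6723. With the replicate block there were 6908 calls, 6617 of them shared. The sample labels do not say whether replicate numbers pair samples. Same-numbered libraries had correlations of deviations of -0.02, 0.04 and 0.09, and low values of this kind cannot exclude pairing. The replicate block changed no call of a cluster gene.

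Abca1 and Arsg, which did not pass the threshold, changed sign. With 1 library left out, the Abca1 log2 fold change ranged from -0.066 (without cKO replicate 1) to 0.011 (without cKO replicate 2). The Arsg log2 fold change ranged from -0.18 (without cKO replicate 3) to 0.075 (without WT replicate 3), and was also above 0 without cKO replicate 1 or 2. The cause was not tested. Slc16a6 passed the threshold in 1 alternative. Other scalings moved the median of all genes by at most 0.02 on the log2 scale. With 25 to 40 counts per library, the interval of Abca8b ran from 0.931-fold to 1.81-fold. At 50 bases, 1.64% of Abca8a windows and 2.45% of Abca8b windows were shared with other genes, and at 100 bases 0.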
